A study of Mus musculus with 77 samples.

Results

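The genes described here are the 7 mouse genes that encode the E proteins and the Id proteins, namely Tcf3, Tcf4, Tcf12, Id1, Id2, Id3 and Id4. They were taken by symbol from a table of 46078 genes, all 7 were found in it, and all 7 passed the limit on detection at both time points, so none had to be left out. They were measured in pancreatic ductal organoids of C57BL/6 mice, which are three-dimensional cultures grown from adult pancreatic ducts. The organoids carried a lentiviral Tet-on system that expresses GFP alone (GFP only), GFP with wild-type Neurogenin3 (WT Ngn3), or GFP with the phosphomutant 6S-A Ngn3, in which serines are changed to alanine. GFP-positive cells were sorted 2 days after induction in those 3 groups, and 8 days after induction from the WT Ngn3 and the 6S-A Ngn3 organoids. The controls at 8 days were cells without the reporter color, sorted from the same kinds of organoid (no-color WT and no-color 6S-A), so they are not GFP-only cells of the later time. Each library was made from a pool of 50 sorted cells, and each group had 3 biological replicates with up to 6 pools each. All cultures were of passage 2 except replicate 3 of every 8-day group, which was of passage 5.

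Ngn3, encoded by Neurog3, is a basic helix-loop-helix (bHLH) transcription factor that starts endocrine differentiation in the pancreas. Tissue-restricted bHLH factors of this kind bind DNA at E-boxes as dimers with the broadly expressed E proteins. Tcf3 encodes the splice forms E12 and E47, Tcf4 encodes E2-2, and Tcf12 encodes HEB. Tcf4 is a different gene from Tcf7l2, whose protein shares the older name TCF4. Id proteins have the helix-loop-helix but no basic region, so they pair with E proteins without binding DNA and take them away from their partners. Id genes are well known targets of bone morphogenetic protein (BMP) signalling.

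In the GENCODE annotation of GRCm38, Tcf3 (ENSMUSG00000020167) lies at chr10:80409514-80433647 on the minus strand and Tcf12 (ENSMUSG00000032228) at chr9:71842688-72111871 on the minus strand. The Id genes are spread over 4 chromosomes, with Id1 (ENSMUSG00000042745) at chr2:152736251-152737410 (plus), Id2 (ENSMUSG00000020644) at chr12:25093799-25097140 (minus), Id3 (ENSMUSG00000007872) at chr4:136143497-136145755 (plus) and Id4 (ENSMUSG00000021379) at chr13:48261228-48266026 (plus). Tcf4 is ENSMUSG00000053477.

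The RefSeq promoter sequences of Id2 and Id4 are shown because these Id genes differed from controls in opposite directions at 2 days. Capitals mark 2 kinds of motif, the E-box CANNTG and the palindrome GGCGCC, which is known from BMP-responsive regions of Id genes. Both motifs read the same on either strand, and they did not overlap each other in the promoters of these genes. The Id2 stretch lies on GRCm38.p6 at chr12:25096254-25096342 (minus strand), 89 bases in an intron of the longer annotated Id2 transcript, and the 161 bases between it and the RefSeq start are left out because they are annotated as exon. The Id4 stretch lies at chr13:48260866-48261115 (plus strand), 250 bases before the RefSeq start and within the opposite-strand genes A330033J07Rik and Gm49291, outside their exons.
Id2: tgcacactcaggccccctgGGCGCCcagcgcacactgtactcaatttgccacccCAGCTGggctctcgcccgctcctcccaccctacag
Id4: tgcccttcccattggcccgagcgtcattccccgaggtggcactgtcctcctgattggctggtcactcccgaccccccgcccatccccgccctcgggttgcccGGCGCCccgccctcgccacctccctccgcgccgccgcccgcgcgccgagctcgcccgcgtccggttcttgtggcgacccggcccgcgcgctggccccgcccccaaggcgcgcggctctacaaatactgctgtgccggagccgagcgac

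Promoter records were found for 5 of the 7 genes (Tcf3, Tcf12, Id2, Id3 and Id4). In the 250 bases before the start, Id2 held 1 CANNTG, at 196 bases before the start, and 1 GGCGCC, at 231 bases before it. Id4 held 1 GGCGCC, at 148 bases before the start, and no CANNTG. The Id3 window held neither, but at chr4:136143572-136143821 it lay inside the annotated Id3 gene. Tcf3 held 1 CANNTG, and 2 of the 3 Tcf12 records held 1 each. The Tcf3 and Tcf12 windows also lay partly or wholly inside their annotated genes. Among all 32851 promoter records, 66.2% held a CANNTG and 9.59% a GGCGCC, so the E-box is common in windows of this length and GGCGCC less so.

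The expressed gene was checked first. Neurog3 was at 205, 89.5 and 105 counts scaled to 1000000 reads (CPM) in the 3 replicates of WT Ngn3 at 2 days, and at 198, 117 and 99.9 CPM in those of 6S-A Ngn3. The GFP-only replicates held 4 Neurog3 reads in all (0.0726, 0.0382 and 0.0461 CPM). Both forms were therefore far above the control, and the difference between them did not pass the test (log2 fold change 0.05, 95% confidence interval -0.68 to 0.78). At 8 days Neurog3 was lower, at 6.90, 46.4 and 14.3 CPM for WT Ngn3 and at 9.87, 12.8 and 15.4 CPM for 6S-A Ngn3. The no-color cells were at 0 to 0.392 CPM in WT and 0 to 0.992 CPM in 6S-A organoids. Counts do not tell transgenic from endogenous Neurog3, and reads of the wild-type and the mutant form fall on the same gene.

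The libraries kept held 1501002 to 5632412 reads on genes at 2 days and 2397470 to 9202142 at 8 days. The cells of every group held reads of all 12 ductal markers, as their label says, and Krt7 had a group mean of 1077 to 1311 CPM. The ductal summed level was 17747 to 19378 CPM per replicate in GFP only, 11545 to 12323 in WT Ngn3 and 10137 to 10462 in 6S-A Ngn3 at 2 days, and 6 of the 12 markers fell in each comparison with GFP only. Cell cycle genes fell too, 12 of 16 with WT Ngn3 and all 16 with 6S-A Ngn3, as did 6 and 10 of 12 immediate early genes. Endocrine markers rose, 5 of 8 tested with WT Ngn3 and all 8 with 6S-A Ngn3. Their summed level was 0.784 to 2.21 CPM in GFP only and 117 to 595 and 501 to 1254 CPM with Ngn3. Ins1 and Ins2 were at 0 in all 3 groups of 2 days. Markers near 0 in GFP only could pass the limit on detection through the Ngn3 pools alone. Immune markers summed to 15.9 to 22.5 CPM in GFP only, 7.69 to 11.3 CPM with WT Ngn3 and 8.03 to 9.99 CPM with 6S-A Ngn3, and Cd3e and Tyrobp were at 0 in all 3. Over all 7 groups, immune, endothelial, acinar and fibroblast markers summed to at most 29.1, 19.8, 18.5 and 5.21 CPM in any replicate, and Cpa1, Pnlip, Ptf1a, Col3a1 and Thy1 were at 0 throughout. At 8 days the ductal summed level was 17227 to 41286 CPM in the 6 no-color replicates and 10665 to 26176 CPM in the 6 with Ngn3, cell cycle genes summed to 322 to 1144 and 150 to 363 CPM, and endocrine markers to 3.21 to 15.4 and 13.5 to 5197 CPM. None of the 16 cell cycle genes passed there with either form. Of 8 endocrine markers 2 rose with each form, and 1 and 2 of 12 ductal markers fell. Over all genes 0.914% and 1.71% passed. The part of these shifts in the results on E protein and Id genes was not tested. In pools of cells, fewer cells with an RNA and less of it per cell cannot be told apart.

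Levels between genes were compared per length, as CPM divided by the median length in kilobases of each gene's coding transcripts. In GFP-only cells the order was Id2 (250 ± 40.2 CPM per kb, SD, n = 3), Id1 (120 ± 29.01), Tcf3 (44.7 ± 2.13), Tcf12 (25.6 ± 1.45), Tcf4 (17.1 ± 3.48), Id3 (3.54 ± 1.42) and Id4 (0.0592 ± 0.0306), and no neighbours in this order overlapped. Id2 and Id1 were thus the main Id transcripts of these duct cells, and Tcf3 the main E protein transcript. With Ngn3 at 2 days the replicates of Id2 overlapped those of Id1, and those of Tcf4 overlapped those of Tcf12, while the other neighbours stayed apart. At 8 days Id2 and then Id1 led in all 4 groups, overlapping in the no-color WT and the 6S-A Ngn3 cells. Neighbouring E proteins overlapped, apart from Tcf3 and Tcf4 in the no-color 6S-A cells, and with 6S-A Ngn3 Id3 came between Tcf3 and Tcf4 and overlapped both. Id4 had the lowest mean of the 7 in every group, and overlapped Id3 in WT Ngn3 cells of 8 days. Much of this order depends on the length used. Per length of all exons, Id2 and Id1 overlapped in GFP only, Id1 had the higher mean than Id2 in every group but GFP only and no-color 6S-A, for example 111 against 78.3 CPM per kb with WT Ngn3 at 2 days, and Tcf4 was below Tcf12 in every group, at 2.71 against 8.72 CPM per kb in those cells. Id4 was the lowest in every group with either length.

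**Figure D1:**
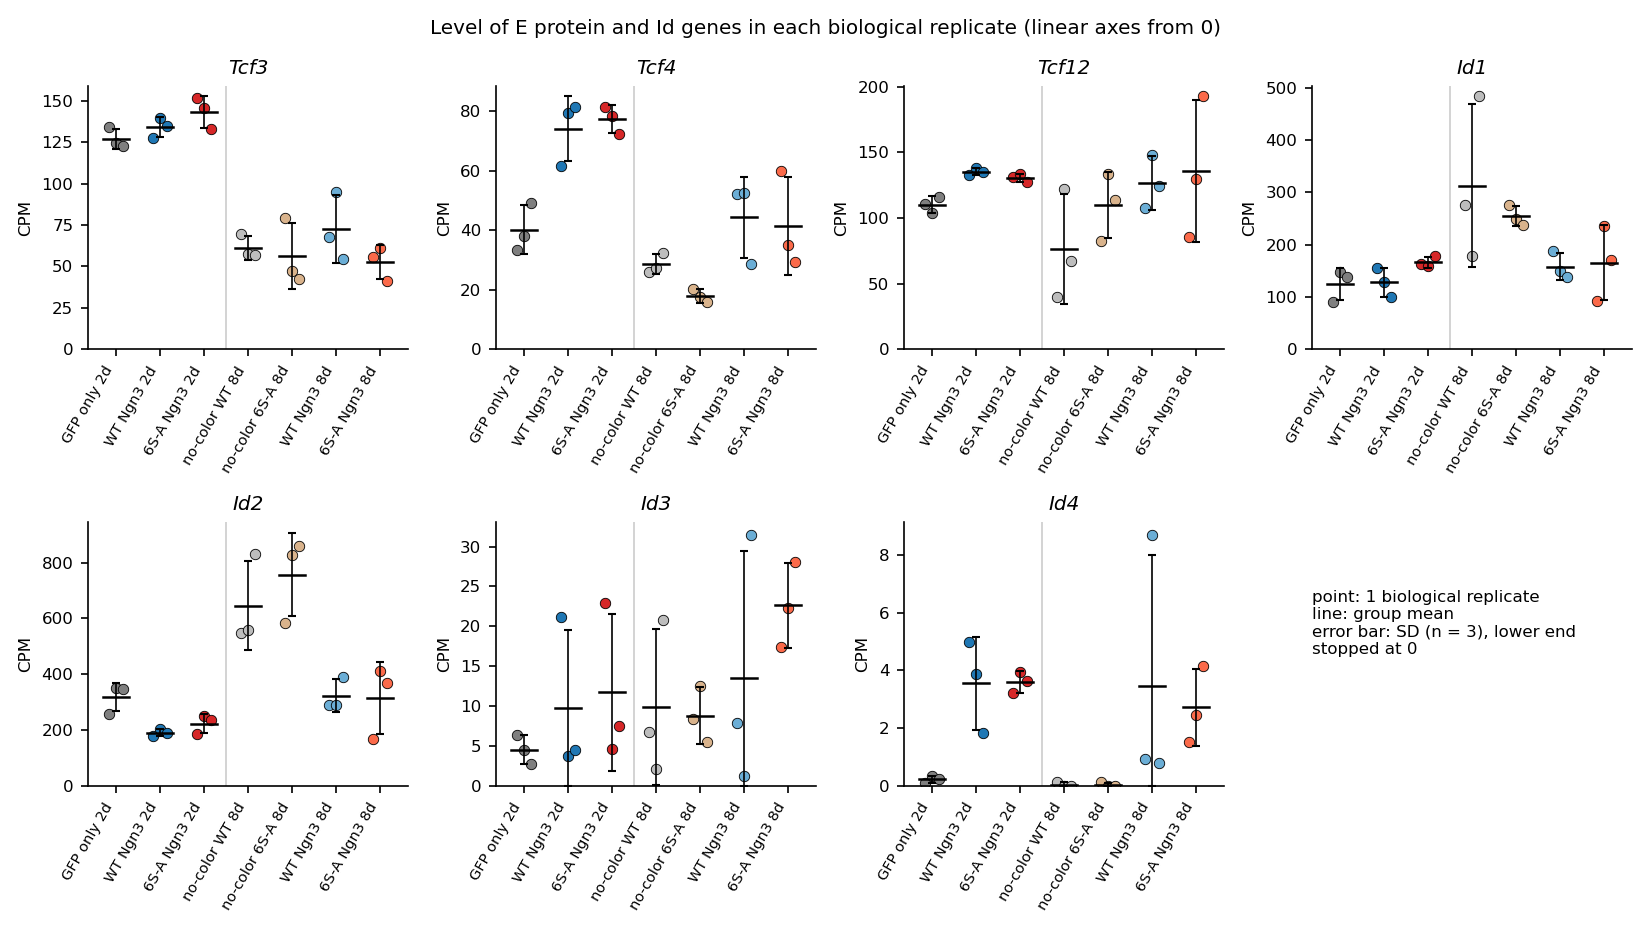
Level of each gene in CPM (vertical axes, linear from 0) for the 3 biological replicates of each of the 7 groups (points; line, mean; bar, SD). Tcf4 and Id4 lie above GFP only in all 6 Ngn3 replicates of 2 days and Id2 lies below, and the no-color cells of 8 days hold the highest Id2, from 548 to 859 CPM.

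At 2 days, 3 of the 7 genes passed the test in cells with WT Ngn3 against GFP only, with Id4 and Tcf4 higher and Id2 lower. Over all genes tested, 11.8% of 23844 passed in that comparison. The same 3 genes passed with 6S-A Ngn3, in the same directions, where 18.1% of all genes did. Both comparisons share the GFP-only samples. The median log2 fold change of the 7 genes was 0.30 in the first comparison and 0.40 in the second, and over all genes it was 0.01 and 0.02.

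Of the E protein genes, Tcf4 rose. It was at 33.3, 38.2 and 49.2 CPM in GFP-only cells, at 61.6, 79.5 and 81.3 CPM with WT Ngn3, and at 81.5, 78.4 and 72.4 CPM with 6S-A Ngn3. Every Ngn3 replicate was above every GFP-only replicate. The increase was 1.84-fold with WT Ngn3 (log2 0.88 ± 0.16 SE, adjusted p = 0.00197, edgeR quasi-likelihood test) and 1.91-fold with 6S-A Ngn3 (log2 0.94 ± 0.16, adjusted p = 0.000803). Over the single pools the median rose from 42.7 CPM (19.3 to 71.6, 18 pools) to 77.4 CPM (38.9 to 112, 18 pools) and 76.5 CPM (55.3 to 131, 18 pools), so pools of the groups overlapped while the replicates did not. The call held in each of the 9 fits that left out a replicate (log2 0.75 to 1.04 for WT Ngn3 and 0.80 to 1.10 for 6S-A Ngn3). It was lost when only the first pool of each replicate was used (adjusted p = 0.112 and 0.0737), with a similar fold change.

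Tcf12, which encodes HEB, was at 110, 104 and 116 CPM in GFP-only cells, 133, 138 and 135 CPM with WT Ngn3 and 131, 133 and 127 CPM with 6S-A Ngn3. The groups did not overlap, but the differences of 1.23-fold and 1.18-fold did not pass the test (log2 0.30 ± 0.10, adjusted p = 0.0726, and 0.24 ± 0.10, adjusted p = 0.130). Groups without overlap were found for 26.2% of all genes in the first comparison and 32.8% in the second. DESeq2's test called both (adjusted p = 0.0105 and 0.0387), and edgeR's own filter on low counts gave a call for WT Ngn3 (adjusted p = 0.0443). Tcf3, the highest of the 3 per transcript length in these cells, was at 123 to 134 CPM in GFP only, 128 to 140 CPM with WT Ngn3 and 133 to 152 CPM with 6S-A Ngn3. Its replicates overlapped, and the 95% confidence intervals of its log2 fold change (-0.14 to 0.30 and -0.05 to 0.39) exclude a change as large as that of Tcf4. Splice forms such as E12 and E47 are not separated by counts per gene.

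Among the Id genes, Id2 fell. It was at 259, 349 and 346 CPM in GFP-only cells, at 179, 204 and 190 CPM with WT Ngn3, and at 187, 249 and 234 CPM with 6S-A Ngn3. The groups did not overlap in either comparison, which also held for 26.2% and 32.8% of all genes. The nearest replicates were GFP-only replicate 1 and 6S-A Ngn3 replicate 2. Id2 was 1.66-fold lower with WT Ngn3 (log2 -0.73 ± 0.14, adjusted p = 0.00328) and 1.43-fold lower with 6S-A Ngn3 (log2 -0.52 ± 0.14, adjusted p = 0.0191). The first call held in all 9 fits without a replicate. The second was lost without GFP-only replicate 2 (log2 -0.46, adjusted p = 0.0727), without GFP-only replicate 3 (log2 -0.46, adjusted p = 0.0565) and without 6S-A Ngn3 replicate 1 (log2 -0.41, adjusted p = 0.0933). With only the first pool of each replicate both were lost (log2 -0.49 and -0.14). Id2 had the most reads of the 7 genes (12287 to 23767 per group at 2 days), so counting error adds little to these values.

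Id4 rose from close to nothing. The GFP-only replicates held 3, 9 and 5 Id4 reads (0.109, 0.344 and 0.230 CPM), those of WT Ngn3 held 126, 74 and 37 reads (4.98, 3.87 and 1.82 CPM), and those of 6S-A Ngn3 held 70, 76 and 82 reads (3.21, 3.95 and 3.64 CPM). Pooled over replicates, the level was 16.2-fold higher with WT Ngn3 (95% counting interval 9.92 to 28.3, exact) and 15.9-fold higher with 6S-A Ngn3 (9.71 to 27.8). The fitted log2 fold changes were 3.95 ± 0.51 (adjusted p = 0.000154) and 3.95 ± 0.51 (adjusted p = 8.49e-05). Reads of Id4 were found in 7 of 18 GFP-only pools, in 17 of 18 pools with WT Ngn3 and in 17 of 18 with 6S-A Ngn3. The calls held in all 9 fits without a replicate, and were lost when only the first pool of each replicate was used (log2 2.37, adjusted p = 0.596, and 1.63, adjusted p = 0.721). Even after the rise, Id4 made up at most 0.420% of the summed Id RNA per median transcript length of any replicate at 2 days. With the length of all exons it was at most 0.585%. Of its 3849 exon bases, 171 (4.44%) overlap exons of A330033J07Rik on the opposite strand, and counts made without strand cannot tell the 2 genes apart there.

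Id1 and Id3 did not pass the main test at 2 days. With the replicate number as a block, edgeR's test called Id3 with 6S-A Ngn3 (log2 1.09, adjusted p = 0.0353) but not with WT Ngn3. Id1 was at 90.9, 148 and 138 CPM in GFP only, 156, 129 and 100 CPM with WT Ngn3 and 163, 158 and 178 CPM with 6S-A Ngn3. The 6S-A Ngn3 replicates of Id1 lay above all others, but the log2 difference of 0.40 ± 0.18 from GFP only gave an adjusted p of 0.168. Of all genes, 32.8% had no overlap between 6S-A Ngn3 and GFP only. Id3 was at 6.39, 4.44 and 2.77 CPM in GFP only, at 21.1, 3.71 and 4.48 CPM with WT Ngn3 and at 23.0, 4.63 and 7.49 CPM with 6S-A Ngn3. Replicate 1 was the highest in both Ngn3 groups, and the other replicates of WT Ngn3 lay within the range of GFP only, while replicate 3 of 6S-A Ngn3 lay above it. Without replicate 1 of WT Ngn3, the log2 difference of Id3 from GFP only was -0.16 in place of 1.12, and without replicate 1 of 6S-A Ngn3 the other difference was 0.41 in place of 1.37. 

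**Figure D2:**
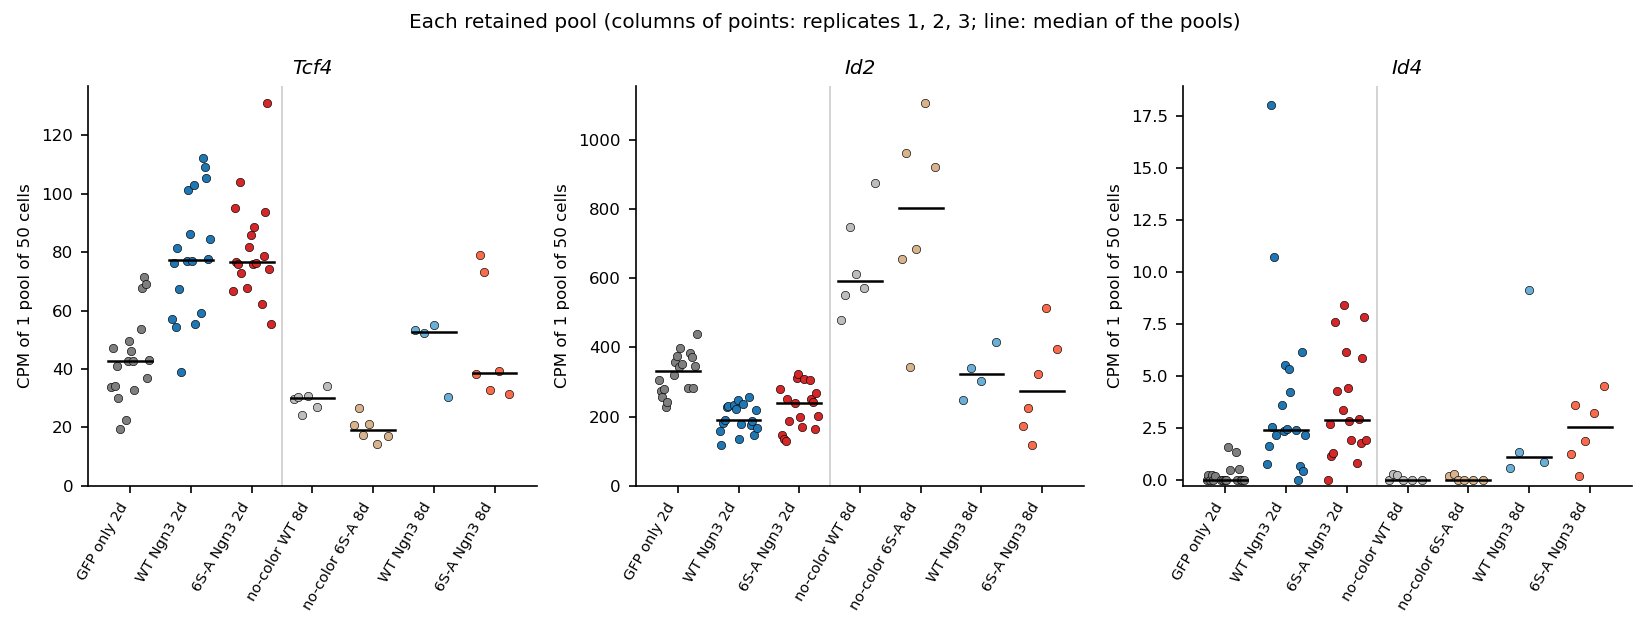
CPM of Tcf4, Id2 and Id4 in each retained pool of 50 cells (points; linear axes), in 3 columns per group for replicates 1 to 3, with the median of the pools (line). The Id4 median is 0 in GFP-only and no-color pools and above 0 in every Ngn3 group, while Id2 and Tcf4 pools of Ngn3 and control cells overlap at 2 days.

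The 2 forms of Ngn3 were then compared with each other. At 2 days none of the 7 genes passed between 6S-A and WT Ngn3 by edgeR, none had an unadjusted p under 0.05, and none passed by DESeq2, and over all genes 0.0126% of 23844 passed. The 95% confidence intervals of the log2 difference were narrowest for Tcf12 (-0.28 to 0.15) and Tcf3 (-0.13 to 0.31), wider for Id2 (-0.09 to 0.52), Tcf4 (-0.28 to 0.39) and Id1 (-0.03 to 0.76), and widest for Id4 (-0.89 to 0.90) and Id3 (-1.53 to 2.03). Id1 was the gene without overlap, at 158 to 178 CPM with 6S-A Ngn3 against 100 to 156 CPM with WT Ngn3 (log2 0.37 ± 0.18, adjusted p = 0.913), and 10.7% of all genes had no overlap in this comparison.

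At 8 days, Id4 was the single gene of the 7 that passed against the no-color cells, in both comparisons. Over all genes, 0.914% of 19696 passed in the comparison of WT Ngn3 and 1.71% in that of 6S-A Ngn3. The 6 no-color replicates are controls of both comparisons. They held 4 Id4 reads in all, 2 in each replicate 1 and none in the others, where 3 reads would be 0.270 to 1.74 CPM. The WT Ngn3 replicates held 10, 27 and 4 reads (0.932, 8.70 and 0.796 CPM) and the 6S-A Ngn3 replicates 25, 21 and 27 reads (1.51, 2.47 and 4.17 CPM). Pooled levels were 33.5-fold higher with WT Ngn3 (95% counting interval 12.1 to 129) and 35.7-fold higher with 6S-A Ngn3 (13.4 to 135), with adjusted p of 0.0423 and 0.0355. Id4 was read in 4 of 4 and 6 of 6 Ngn3 pools and in 2 of 6 pools of each no-color group. Testing required reads in at least 5 libraries of the time point, so Id4 reached the 8-day test only through Ngn3 pools. These calls are close to the threshold. The first was lost in 9 of 12 fits that left out a replicate, down to log2 3.72 (adjusted p = 0.412) without WT Ngn3 replicate 2. It was kept only without the last WT Ngn3 replicate, number 3, or without replicate 1 or 3 of 6S-A Ngn3. The second was lost without any single replicate of the no-color or 6S-A Ngn3 groups (9 of 12 fits, log2 4.81 to 6.48, adjusted p = 0.0543 to 0.101). Both were lost with passage 2 alone (log2 5.81 and 4.58, adjusted p = 0.0975 and 0.180) and against the no-color cells of the same organoids alone (log2 5.48 and 5.43, adjusted p = 0.273 and 0.195), against main log2 values of 5.63 and 5.28.

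Id2 was again lower with Ngn3 at 8 days, without passing the main test. It was at 548, 559 and 829.4 CPM in no-color WT cells and at 585, 828 and 859 CPM in no-color 6S-A cells. With WT Ngn3 it was at 289, 290 and 391 CPM, and with 6S-A Ngn3 at 167, 410 and 369 CPM. All 6 Ngn3 replicates were below all 6 no-color replicates, with levels 2.15-fold lower for WT Ngn3 (log2 -1.11 ± 0.32, adjusted p = 0.141) and 2.23-fold lower for 6S-A Ngn3 (log2 -1.16 ± 0.32, adjusted p = 0.0845). Groups without overlap were found for 5.24% and 5.78% of all genes in these comparisons. DESeq2's test called Id2 in both (adjusted p = 0.0345 and 0.0158). So did edgeR's test with the replicate number as a block (adjusted p = 0.02785 and 0.0113). Without a filter, edgeR's test called it for 6S-A Ngn3 (adjusted p = 0.0368).

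None of the E protein genes passed against no-color cells at 8 days. Tcf4 was at 26.1, 27.4 and 32.4 CPM in no-color WT cells, 20.4, 17.5 and 15.8 CPM in no-color 6S-A cells, 52.1, 52.5 and 28.7 CPM with WT Ngn3 and 59.99, 34.9 and 29.3 CPM with 6S-A Ngn3. Its log2 differences of 0.98 ± 0.34 and 0.88 ± 0.33 were close in size to those of 2 days and did not pass (adjusted p = 0.246 and 0.261). The passage 5 replicate was the lowest in both Ngn3 groups. Tcf12 (log2 0.47 ± 0.34 and 0.55 ± 0.34) and Tcf3 (0.31 ± 0.30 and -0.16 ± 0.30) overlapped with the controls. Id1, at 179 to 484 CPM in the 6 no-color replicates, 137 to 187 CPM with WT Ngn3 and 91.7 to 235 CPM with 6S-A Ngn3, had log2 differences of -0.82 ± 0.35 and -0.77 ± 0.35 (adjusted p = 0.399 and 0.378). Id3 ranged from 1.29 to 31.4 CPM within WT Ngn3 alone.

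**Figure D3:**
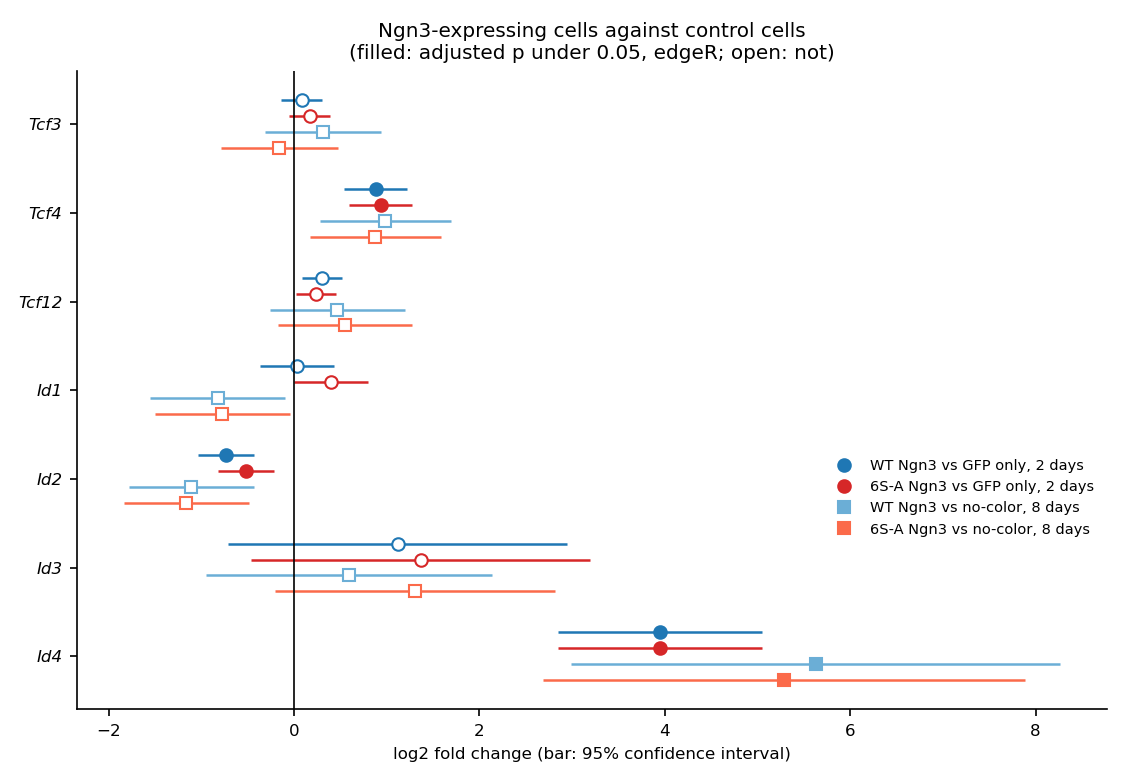
Log2 fold change of each gene in Ngn3-expressing against control cells (horizontal axis; bar, 95% confidence interval) for the 2 comparisons of 2 days (circles) and the 2 of 8 days (squares), with filled symbols for adjusted p under 0.05. Id4 is filled in all 4 comparisons, Tcf4 and Id2 in those of 2 days, and the intervals of 8 days are wider for each gene but Id3.

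Between 6S-A and WT Ngn3 at 8 days, none of the 7 genes passed by edgeR or by DESeq2 and none had an unadjusted p under 0.05, and 0% of 19696 genes passed. The intervals of the log2 difference were wide, from -1.20 to 0.26 for Tcf3, -0.79 to 0.69 for Id2 and -3.07 to 2.38 for Id4. Between the no-color cells of the 2 kinds of organoid, none of the 7 genes passed either (none by edgeR or DESeq2, none with an unadjusted p under 0.05, 0% of all genes). Tcf4 did not overlap between them, at 26.1 to 32.4 CPM in no-color WT and 15.8 to 20.4 CPM in no-color 6S-A cells (log2 -0.65 ± 0.40, adjusted p = 0.696), and 12.3% of all genes had no overlap there.

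Levels of the control cells differed between the time points. In no-color cells of 8 days against GFP-only cells of 2 days, Tcf3 was 2.16-fold lower (log2 -1.11 ± 0.21, adjusted p = 0.00955) and Id2 2.20-fold higher (log2 1.14 ± 0.26, adjusted p = 0.0296), while 1.35% of 19589 genes passed. Tcf3 was at 42.5 to 79.1 CPM in the 6 no-color replicates and 123 to 134 CPM in GFP only, with no overlap. Id1 was 2.24-fold higher (log2 1.17 ± 0.30, adjusted p = 0.0573) and Tcf4 1.78-fold lower (log2 -0.83 ± 0.24, adjusted p = 0.0944), also without overlap and short of the threshold. Groups without overlap were found for 8.70% of all genes here. Id1 passed in 4 of the fits that left out a replicate (without no-color WT replicate 2 or any 6S-A Ngn3 replicate of 8 days) and also with no filter (adjusted p = 0.00411) and by DESeq2 (adjusted p = 0.00577), which also called Tcf4 (adjusted p = 0.0247). With passage 2 alone Tcf4 passed too (log2 -0.82, adjusted p = 0.0375), and the calls of Tcf3 and Id2 held. The Tcf3 call was lost without GFP-only replicates 1 or 3 (adjusted p = 0.102 and 0.0545), and that of Id2 without any single GFP-only replicate or no-color 6S-A replicate 3 (adjusted p = 0.0695 to 0.223). Time in culture, the kind of control cell and, in replicate 3, passage cannot be told apart in this comparison.

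In Ngn3-expressing cells, Tcf3 was lower at 8 than at 2 days by the same measure. With 6S-A Ngn3 it went from 152, 146 and 133 CPM to 55.5, 60.9 and 41.2 CPM, 2.73-fold lower (log2 -1.45 ± 0.25, adjusted p = 0.0113), and it was the single gene of the 7 that passed, where 0.562% of all genes did. That call was lost without 6S-A Ngn3 replicate 1 of 2 days (adjusted p = 0.0801) or replicate 3 of 2 days (adjusted p = 0.0549). With WT Ngn3 it went from 128, 140 and 135 CPM to 67.9, 95.02 and 54.7 CPM (log2 -0.89 ± 0.25, adjusted p = 0.230). None of the 7 genes passed there by edgeR, 3 had an unadjusted p under 0.05, DESeq2 called Tcf3 alone, and 0.168% of all genes passed. Tcf4 was lower and did not pass in either (log2 -0.74 ± 0.29 in WT Ngn3 cells, -0.90 ± 0.28 in 6S-A Ngn3 cells), but did in the latter by DESeq2 (adjusted p = 0.0303) and without 6S-A Ngn3 replicate 1 of 8 days (log2 -1.27, adjusted p = 0.0487). Id2 was higher and did not pass (log2 0.76 ± 0.28 and 0.50 ± 0.28), and Tcf12 stayed within 0.10 of no change on the log2 scale in both, with intervals of -0.76 to 0.56 and -0.60 to 0.71.

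No gene of the 7 showed a response to Ngn3 that differed between the time points beyond the test. For WT Ngn3 none passed and none had an unadjusted p under 0.05, and 0% of 19589 genes passed. For 6S-A Ngn3 none passed, Id1 had an unadjusted p under 0.05, and 0.0102% of all genes passed. DESeq2 called none in either. Id1 was the gene with the smallest p, with a change of the 6S-A response of log2 -1.18 ± 0.44 (adjusted p = 0.715), from 0.40 above control at 2 days to 0.77 below at 8 days. A change between the time points in the difference between 6S-A and WT Ngn3 passed for none of the 7 (none by edgeR or DESeq2, none with an unadjusted p under 0.05, 0% of all genes). Controls differ in kind between the time points, so these changes of response rest on both kinds of control.

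The balance of Id to E protein RNA was taken as the sum of the 4 Id genes over the sum of the 3 E protein genes per length, and is given as a description. It was 3.40, 4.98 and 4.46 in the GFP-only replicates, 3.02, 2.49 and 2.20 with WT Ngn3 and 2.72, 3.04 and 3.38 with 6S-A Ngn3, so that both Ngn3 groups lay below the control at 2 days. With the length of all exons of a gene in place of the median transcript, the ranges were 4.54 to 7.02, 3.72 to 5.21 and 4.72 to 5.83 and overlapped. At 8 days the no-color replicates ranged from 10.2 to 22.9 and the Ngn3 replicates from 3.59 to 8.52, and they stayed apart with the other length (16.7 to 39.3 against 7.15 to 15.6). The makeup of each sum moved as well. Tcf4 made up 16.3% to 23.0% of the E protein RNA in GFP-only cells and 25.7% to 30.5% in Ngn3 cells of 2 days. Id2 made up 65.5% to 69.0% of the Id RNA in GFP-only cells and 45.6% to 59.9% in Ngn3 cells of 2 days. With the length of all exons the shares themselves were lower, 2.93% to 4.54% and 5.30% to 6.59% for Tcf4 and 52.4% to 56.5% and 33.1% to 46.5% for Id2, and Ngn3 cells again did not overlap with the control.

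**Figure D4:**
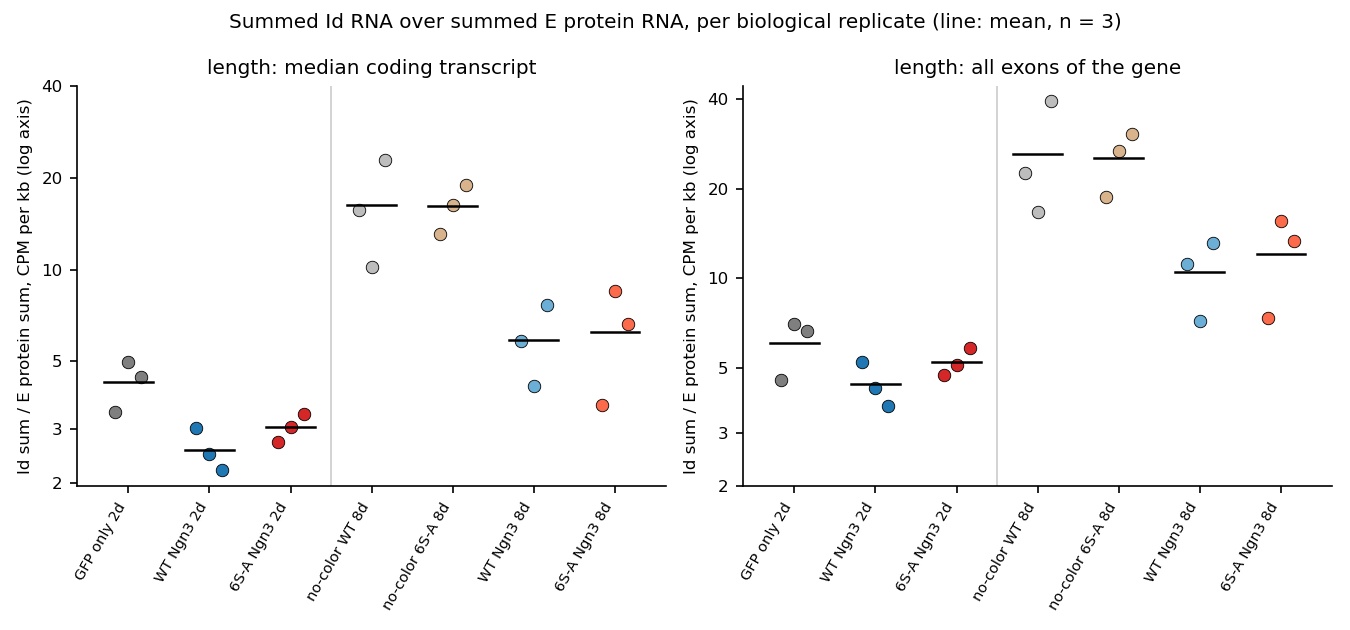
Ratio of summed Id RNA to summed E protein RNA, both in CPM per kb, in each biological replicate of the 7 groups (points; line, mean; log axis), with the length of the median coding transcript (left) or of all exons (right). No-color cells of 8 days lie highest in both panels, and the Ngn3 cells of 8 days lie between 3.59 and 8.52 on the left.

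The tissue-restricted bHLH genes are the partners of E proteins. Of 42 such genes, 21 could be tested at 2 days, and 7 were higher and 1 lower with WT Ngn3, and 9 were higher and 2 lower with 6S-A Ngn3 (11.8% and 18.1% of all genes passed). Their median log2 fold changes were 3.92 and 4.59, beside 0.01 and 0.02 over all genes. Genes almost without reads in GFP only, such as Neurod1, passed the limit on detection through the Ngn3 pools. These medians are therefore partly set by that limit. Neurod1, a later endocrine bHLH factor, had group means of 0.0121 CPM in GFP only, 67.9 CPM with WT Ngn3 and 73.1 CPM with 6S-A Ngn3. Neurod2, of the same subfamily, had means of 0.0154, 6.62 and 8.69 CPM. Atoh8 rose in both as well, from 0.0121 CPM to 11.7 CPM with 6S-A Ngn3. At 8 days 10 of the 42 could be tested, and Neurog3, Neurod1 and Atoh8 were the 3 that rose in both comparisons, with none lower, where 0.914% and 1.71% of all genes passed. Ngn3 itself is on this list, and its transgenic and endogenous reads cannot be told apart.

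Some corepressors and adaptors that bind E proteins or their complexes also rose. Of 15 listed, 13 could be tested at 2 days, and 4 were higher and 1 lower with each form of Ngn3 (11.8% and 18.1% of all genes passed), with medians of 0.15 and 0.08. Cbfa2t3, of the ETO corepressor family that binds E proteins, went from a mean of 0.915 CPM to 104 CPM with WT Ngn3 (log2 6.84 ± 0.45) and 156 CPM with 6S-A Ngn3 (log2 7.42 ± 0.46). Its relatives Runx1t1 (0.0503 CPM to 31.6 and 43.1 CPM) and Cbfa2t2 (55.0 CPM to 118 and 167 CPM) rose in both. Ldb1, an adaptor of bHLH and LIM complexes, rose by log2 0.79 ± 0.18 and 0.97 ± 0.18, and Ssbp4 fell by 0.51 and 0.59 on the log2 scale. At 8 days 1 of 12 was higher with WT Ngn3 (Cbfa2t3) and 2 with 6S-A Ngn3 (Cbfa2t3 and Runx1t1), with none lower, beside 0.914% and 1.71% of all genes. From 2 to 8 days Ssbp2 rose in both Ngn3 groups and in the controls, and with 6S-A Ngn3 Ldb1 (log2 -1.60 ± 0.32, adjusted p = 0.0240) and Ssbp3 (log2 -1.42 ± 0.32, adjusted p = 0.0418) fell, where 0.562% of all genes passed.

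A short list held other HLH genes, chosen as repressors. Of its 5 genes, Hes6 and Bhlhe41 rose in WT Ngn3 cells of 2 days, 3 rose in 6S-A Ngn3 cells and none fell, where 11.8% and 18.1% of all genes passed in either direction. The third was Usf1 (log2 0.47 ± 0.12), which is known as a bHLH leucine zipper activator rather than a repressor. Hes6, an HLH factor known to antagonise Hes1, went from a mean of 69.4 CPM to 550 CPM (log2 2.99 ± 0.12) and 724 CPM (log2 3.38 ± 0.13). Bhlhe41, also called DEC2, went from 39.9 CPM to 180 and 182 CPM. At 8 days Bhlhe41 was higher in both comparisons and Hes6 in that of 6S-A Ngn3, where 0.914% and 1.71% of all genes passed. From 2 to 8 days Bhlhe41 and Hes6 fell in WT Ngn3 cells (log2 -1.99 and -1.55) and in 6S-A Ngn3 cells (log2 -1.84 and -1.39). Bhlhe41 also fell in the controls (log2 -1.88). These changes passed, as did 0.168%, 0.562% and 1.35% of all genes in WT Ngn3, 6S-A Ngn3 and control cells.

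Genes of a list made for BMP signalling changed in both directions. The culture medium contained Noggin, an inhibitor of BMP ligands. Of 32 listed genes, 29 could be tested at 2 days, and 5 were higher and 2 lower with WT Ngn3, and 6 higher and 4 lower with 6S-A Ngn3, with medians of 0.16 and 0.12, beside 11.8% and 18.1% of all genes past the test. The ligand Bmp2 went from a mean of 3.65 CPM to 54.9 CPM (log2 3.91 ± 0.19) and 90.0 CPM (log2 4.62 ± 0.19), and Bmp6 from 0.772 CPM to 5.14 and 4.56 CPM. Of the inhibitors, Bambi, a decoy receptor, rose from 5.58 CPM to 93.0 and 136 CPM and Chrd, which binds BMPs, from 0.216 CPM to 3.95 and 7.73 CPM. The 2 genes that fell with WT Ngn3 were Gdf15 (log2 -1.35 ± 0.38) and Smad7, an inhibitory Smad (log2 -0.73 ± 0.20), the latter named after its values were seen. Fst, which binds activin, fell from 181 CPM to 22.8 CPM with 6S-A Ngn3 (log2 -3.01 ± 0.59). At 8 days Bmp2 was the 1 gene of 26 that was higher with WT Ngn3, Bmp2, Bmp6 and Bambi were the 3 that were higher with 6S-A Ngn3, and none was lower (0.914% and 1.71% of all genes passed). 

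Of 9 genes listed for the turnover of Id and E proteins, none rose and 3 fell at 2 days with each form, where 11.8% and 18.1% of all genes passed. These were Usp1, the deubiquitinase that stabilises Id proteins (log2 -0.68 ± 0.16 and -0.66 ± 0.16), Cdc20, an activator of the anaphase-promoting complex (log2 -1.32 ± 0.20 and -1.34 ± 0.20), and Skp2 (log2 -0.73 ± 0.22 and -0.97 ± 0.22). The medians were -0.12 and -0.08. Cdc20 and Skp2 also act in the cell cycle, whose listed genes fell in the same comparisons. The list holds Cdh1, the gene of E-cadherin, beside Fzr1, which encodes the activator known as Cdh1, and neither passed. None of the 9 passed at 8 days.

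The genes most like each of the 7 were taken from the 3 highest Pearson correlations of log2 CPM over the 21 biological replicates, among 14564 named genes with a mean of at least 1 CPM. The replicates share their groups, so these values mostly reflect differences between groups and are given as a description. They were Ddit4, Mlec and Vat1 for Tcf3 (r = 0.920, 0.898 and 0.892), Igf2r and Shc2 for Tcf4 (0.942 and 0.937) and Acbd3, Slc19a2 and Fam208a for Tcf12 (0.911, 0.901 and 0.897). For the Id genes they were Tmem53, Mocs2 and Nop53 for Id1 (0.874, 0.827 and 0.824), Gm6175, Mgst1 and Mocs2 for Id2 (0.948, 0.937 and 0.936), Ttc23, Gm28071 and Gm12226 for Id3 (0.795, 0.777 and 0.728) and Nptx1, Rnase1 and Tff3 for Id4 (0.9497, 0.948 and 0.940). Mocs2 was thus shared by Id1 and Id2, and no other gene named here stood on more than 1 of these short lists.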

How the data were processed

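Single pools of 50 sorted cells were sequenced as full-length libraries without molecular identifiers. The authors aligned the reads with G-SNAP (GSNAP 2015-09-29 in the submitters' processing notes), assigned them to Ensembl release 81 genes (mm10) with HTSeq 0.5.3p3 and deposited the raw counts per gene. Of the deposited reads 22.5% were not aligned, 14.4% fell in no gene and 8.06% were ambiguous. These lines and 92 spike-ins were left out of library sizes and tests. How strand was treated is not given in the sources used here. The table held 77 libraries, 76 passed the study's limits (more than 1000000 reads on genes, more than 10000 genes detected and spike-ins below 30%), and the library left out, of WT Ngn3 at 8 days, held 849278 reads. The study's methods give another number of samples left out by these limits, and the difference was not resolved.

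Pools were summed per biological replicate. Genes detected in at least 5 libraries were tested with edgeR 4.0.16 in R 4.3.3 (TMM, robust quasi-likelihood test, Benjamini-Hochberg threshold 0.05) over all genes, with all groups of a time point in each fit, and in a joint fit of both time points for changes with time. SE is the log2 fold change over the square root of F. The labels do not say whether replicates came from separate animals, so p-values measure the spread between these samples, which may be technical. Floors of 3 reads and exact 95% intervals of ratios cover counting error only. Lengths, overlaps and coordinates are those of GENCODE M21. Symbols were matched for 45143 of 46078 identifiers. The code was tested on simulated data. Members and gene lists were chosen with earlier results of these data known. The genes named are Neurog3, the 7 genes, from each list at most 5 per comparison that passed with a mean of at least 1 CPM in a compared group, by size of change, and the 3 most alike of each gene (log2 CPM, prior count 2). From those, some are given only as counts. A gene alike to Tcf4 is not reported here. Alternatives were scran 1.30.0 and DESeq2 1.42.0 size factors, DESeq2's test, other filters, all libraries, the first pool, passage 2 alone, own no-color controls, a replicate block and leaving out each replicate.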

Additional observations from a re-analysis of the deposited data

Results flagged for a closer look

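Over the 8-day groups, 28 sets of single pools were checked for a value far from the rest, where chance marks about 1 in 20, and 2 were marked, both among the 4 retained pools of WT Ngn3. The Id4 level of the replicate 2 pool was 9.14 CPM, while the other pools lay between 0.558 and 1.35 CPM. This pool was 1 of the 4 behind the 8-day Id4 comparison of WT Ngn3. The Tcf4 level of the replicate 3 pool, of passage 5, was 30.4 CPM, while the others lay between 52.3 and 55.2 CPM.

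The library left out for its depth, also of WT Ngn3 replicate 2 at 8 days, gave values above all 12 no-color pools for 4 of the 7 genes, in CPM of each library's own total. Of the 19696 genes tested at 8 days, 19.8% lay above all 12 in this library with more than 3 reads. They were Tcf3 at 205 (174 reads, highest control pool 90.9), Tcf4 at 142 (121 reads, control 27.6), Tcf12 at 206 (175 reads, control 132) and Id4 at 7.06 (6 reads, control 0.212). Id3 was at 7.06 (6 reads), within the control pools (1.16 to 24.001), and Id1 at 94.2 (80 reads) and Id2 at 65.9 (56 reads) lay below all of them (145 to 349 and 324 to 977). The share of all genes below all 12 control pools was not counted. The value of Id4 is close to that of the other pool of this replicate.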

How the results depend on the processing

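At 2 days, 3 of the 7 genes passed in each comparison with GFP only, and the count fell to 0 in both with only the first pool of each replicate. With a replicate block it rose to 4 for WT Ngn3, by Tcf12 (adjusted p = 0.0150), and to 5 for 6S-A Ngn3, by Tcf12 (adjusted p = 0.0386) and Id3 (adjusted p = 0.0353). At 8 days, 1 gene passed in each comparison with no-color cells. That count was 2 in both with DESeq2's test and with the block, by Id2, and also 2 without a filter for 6S-A Ngn3. It was 0 in both with the first pool, with passage 2 alone and with the own no-color control. Of the comparisons between times, the count for WT Ngn3 went from 0 to 1 with DESeq2's test, that for 6S-A Ngn3 from 1 to 2 with DESeq2's test and to 0 with the first pool, and that of the controls from 2 to 4 with DESeq2's test and to 0 with the first pool. With each replicate left out in turn, the counts ranged from 2 to 3 for 6S-A Ngn3 against GFP only, from 0 to 1 for both 8-day comparisons with no-color cells, from 0 to 2 for 6S-A Ngn3 between times and from 0 to 4 for the controls between times. With WT Ngn3 against GFP only the count was 3 or 4 in every other setting. Counts of 0 between 6S-A and WT Ngn3, between the no-color groups and for changes of response stayed at 0 in every setting. Size factors of scran and DESeq2 changed no count and no direction of a called gene. Of 2216 values of single genes under alternatives, 96 changed sign, none of them past the threshold. The cause of these changes was not tested.

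Same-numbered samples correlated at 0.0440 to 0.184 at 2 days and 0.0690 to 0.478 at 8 days in their deviations from group means. Samples of different numbers correlated at -0.148 to -0.001 and at -0.322 to 0.103. Among genes with a mean above 1 CPM, same-numbered samples were at 0.075 to 0.392 and 0.099 to 0.554. Different numbers there were at -0.352 to 0.015 and -0.366 to 0.134. Not all same-numbered values were above 0.1, so the main test did not pair the samples. All 9 and all 12 samples correlated best with their own number, so the main test may leave out a pairing. With the replicate block, all-gene counts rose from 2810 to 4291 and from 4305 to 5912 at 2 days, and from 180 to 472 and from 337 to 704 at 8 days. DESeq2's test called 551 and 822 genes at 8 days, no filter 724 and 1044, and the own no-color control 49 and 115. The first pool called 1201 and 1658 genes at 2 days, and 111 with WT Ngn3 at 8 days. Between 6S-A and WT Ngn3 at 2 days the all-gene count was 3, against 101 with DESeq2's test, 63 with the first pool, 100 with no filter and 147 with the block, and at 8 days it was 0, against 8 with no filter. Between the no-color groups it was 0, against 38 with DESeq2's test and 352 with no filter. Between times, the counts were 33 in WT Ngn3 cells, 110 in 6S-A Ngn3 cells and 265 in the controls. They became 262, 716 and 1136 with DESeq2's test, 370, 630 and 856 with no filter, 0, 5 and 10 with the first pool, and 11, 230 and 772 with passage 2 alone, and for WT Ngn3 also 9 with all libraries and 17 with scran. The counts for a changed response were 0 (WT Ngn3), 2 (6S-A Ngn3) and 0 (their difference), and 0 for all with the first pool. They became 59, 61 and 4 with DESeq2's test and 87, 133 and 26 with no filter, 15 and 25 for the first 2 with the block, and 4 for 6S-A Ngn3 with passage 2 alone. Id4 rests on few reads, 4 to 27 in the WT Ngn3 replicates of 8 days, and both Id3 and Id4 differed widely between replicates of some groups.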
